A study of Homo sapiens with 11 samples.

Results

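HSP90, its main co-chaperones, the small heat shock protein HSPB1 and the heat shock transcription factors HSF1 and HSF2 make up the 10 genes described here. They were taken by name from a gene count table that held 38021 genes, and all 10 were among the 17793 genes that passed the filter on low counts. The samples were wild-type HEK293T cells, a human embryonic kidney line that carries the SV40 large T antigen, and RNA was sequenced after 6 h of treatment in 11 conditions. The control cells received the vehicle, 0.1% DMSO. The other conditions were 500 nM thapsigargin (Tg), an inhibitor of the calcium pump of the endoplasmic reticulum, 10 µM of the compound AA147, and the compound AA132 at 0.1, 0.3, 1, 3, 6, 10, 15 and 30 µM. Each condition had 3 numbered libraries, and all came from 1 cell line without a genetic change between groups. The labels do not say whether the 3 libraries came from separate cultures, so the p-values measure the spread between these libraries, which may be technical.

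HSP90 is an abundant ATP-driven chaperone that holds kinases, steroid receptors and other client proteins late in their folding. HSP90AA1 codes for the stress-inducible cytosolic form and HSP90AB1 for the form made at a high level in unstressed cells. AHSA1 stimulates the ATPase of HSP90, STIP1 links HSP70 to HSP90, FKBP4 is a peptidyl-prolyl isomerase found in steroid receptor complexes, and CHORDC1 is an HSP90-binding protein with CHORD domains. HSPH1 is an HSP110-type nucleotide exchange factor for HSP70. HSPB1 is an ATP-independent small heat shock protein that binds unfolding proteins. HSF1 is the transcription factor that switches on chaperone genes after heat and other proteotoxic stress, and HSF2 is a relative that can form mixed trimers with it. HSF1 binds heat shock elements, which are runs of the 5-base unit NGAAN in alternating orientation.

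Because cytosolic chaperone genes are classical HSF1 targets, promoters of the set are shown where the paired units of a heat shock element were present. Promoters, from 250 bases before to 50 after each annotated start, were read from RefSeq on GRCh38.p14. HSF1 was not included in the search and no entry was found for FKBP4. The other 8 genes had 14 entries in all. The motifs searched on both strands were GAANNTTC and TTCNNGAA, 2 units facing each other or facing apart, and the 13-base heat shock element of 3 such units in a row, in either orientation. A 13-base match contains a match to each of the 8-base motifs. Of 35116 RefSeq promoters of the same length, 6.77% held GAANNTTC, 7.74% held TTCNNGAA and 0.49% held the 13-base form. The 80-base windows below run 5′ to 3′ on the gene's strand, with matches in capitals:
HSP90AA1 (chr14:102087079-102087158, minus strand, within an intron of the longer gene model): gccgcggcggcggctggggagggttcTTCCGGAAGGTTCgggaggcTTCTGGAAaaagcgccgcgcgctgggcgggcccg
HSP90AB1 (chr6:44247771-44247850, plus strand, within an intron of the longer gene model): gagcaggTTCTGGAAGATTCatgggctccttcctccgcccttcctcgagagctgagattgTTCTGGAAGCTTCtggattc
CHORDC1 (chr11:90223078-90223157, minus strand, upstream of the gene): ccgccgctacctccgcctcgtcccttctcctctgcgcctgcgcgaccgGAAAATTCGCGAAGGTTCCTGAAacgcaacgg
HSPB1 (chr7:76302455-76302534, plus strand, upstream of the gene): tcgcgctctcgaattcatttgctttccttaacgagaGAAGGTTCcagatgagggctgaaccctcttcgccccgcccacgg
CHORDC1 held 3 overlapping 13-base matches, HSP90AB1 held 2 and HSP90AA1 held 1, while HSPB1 held a single GAANNTTC. STIP1 held 1 TTCNNGAA after its start. No match lay in the windows of HSPH1, AHSA1 and HSF2, which says only that these letters were not in those stretches. A match is a description of sequence and was not tested for binding.

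Library depth was even: totals ran from 32.3 M to 37.96 M counts, so counting error was small for every gene in the set, whose lowest count in a library was 887 (HSPB1) and highest 144603 (HSP90AA1). In 3 conditions 1 library stood apart from the others of its condition: library 1 of the vehicle, of AA132 at 10 µM and of AA147. Chi-square per degree of freedom between libraries of a condition had a median of 8.01, but was 49.9 to 64.5 for the pairs with vehicle library 1, 36.4 to 39.1 for those with AA132 10 µM library 1 and 23.9 to 24.8 for those with AA147 library 1. Results that rest on these libraries are given with and without them. The next highest values were 14.3 and 20.2 for pairs with AA132 30 µM library 3, and 14.6 and 15.1 for those with AA132 1 µM library 1. No cutoff was set in advance, and the latter libraries were left out only singly. The HEK293 markers PAX2, LIN28B, NEFM and NEFL were detected in all 33 libraries. PAX2 was low, at 0.407 to 1.53 CPM (counts scaled to a common library total, with TMM factors). LIN28B, NEFM and NEFL had 9.99 CPM or more. Markers of blood, liver, fibroblasts, endothelium and T cells reached at most 0.218 CPM. As a check of the treatments, HSPA5, the chaperone of the endoplasmic reticulum, stood at 959 ± 72.6 CPM (SD, n = 3) in vehicle and 11020 ± 276 under Tg. HMOX1, an oxidative stress gene, stood at 13.1 ± 2.86 CPM in vehicle and 200.6 ± 10.0 under AA132 at 30 µM.

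The 10 genes were expressed over a wide range. Per kilobase of the canonical transcript, the vehicle level was 1103 ± 40.6 CPM per kb (SD, n = 3) for HSP90AB1 and 851 ± 26.3 for HSP90AA1, the highest of the set. STIP1 followed at 263 ± 15.6 CPM per kb, then FKBP4 at 163 ± 15.0 and AHSA1 at 154 ± 19.6, a neighbouring pair that lay within 1 SD of each other. HSPH1 at 53.4 ± 3.46, HSPB1 at 48.6 ± 10.0 and CHORDC1 at 45.3 ± 3.26 CPM per kb came next. HSPB1 lay within its SD of both others, while HSPH1 and CHORDC1 were farther apart than their SDs together. The factors were lowest, HSF1 at 30.6 ± 5.46 and HSF2 at 26.4 ± 1.93 CPM per kb, and did not differ beyond the spread. Both cytosolic HSP90 genes together took 0.556% of all counts in vehicle and the 10 genes together 0.752% ± 0.011 (SD, n = 3). HSP90AA1, HSP90AB1 and HSPB1 have processed pseudogene copies in the genome, so how reads were divided between copies is uncertain for these genes. In GENCODE 44 (GRCh38) the genes that the results turn on lie at chr14:102080742-102139699 (HSP90AA1, minus strand), chr6:44246166-44253888 (HSP90AB1, plus strand), chr13:31134973-31162388 (HSPH1) and chr11:90200429-90223077 (CHORDC1, minus strand). All later levels are CPM, which compare 1 gene across libraries.

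**Figure D1:**
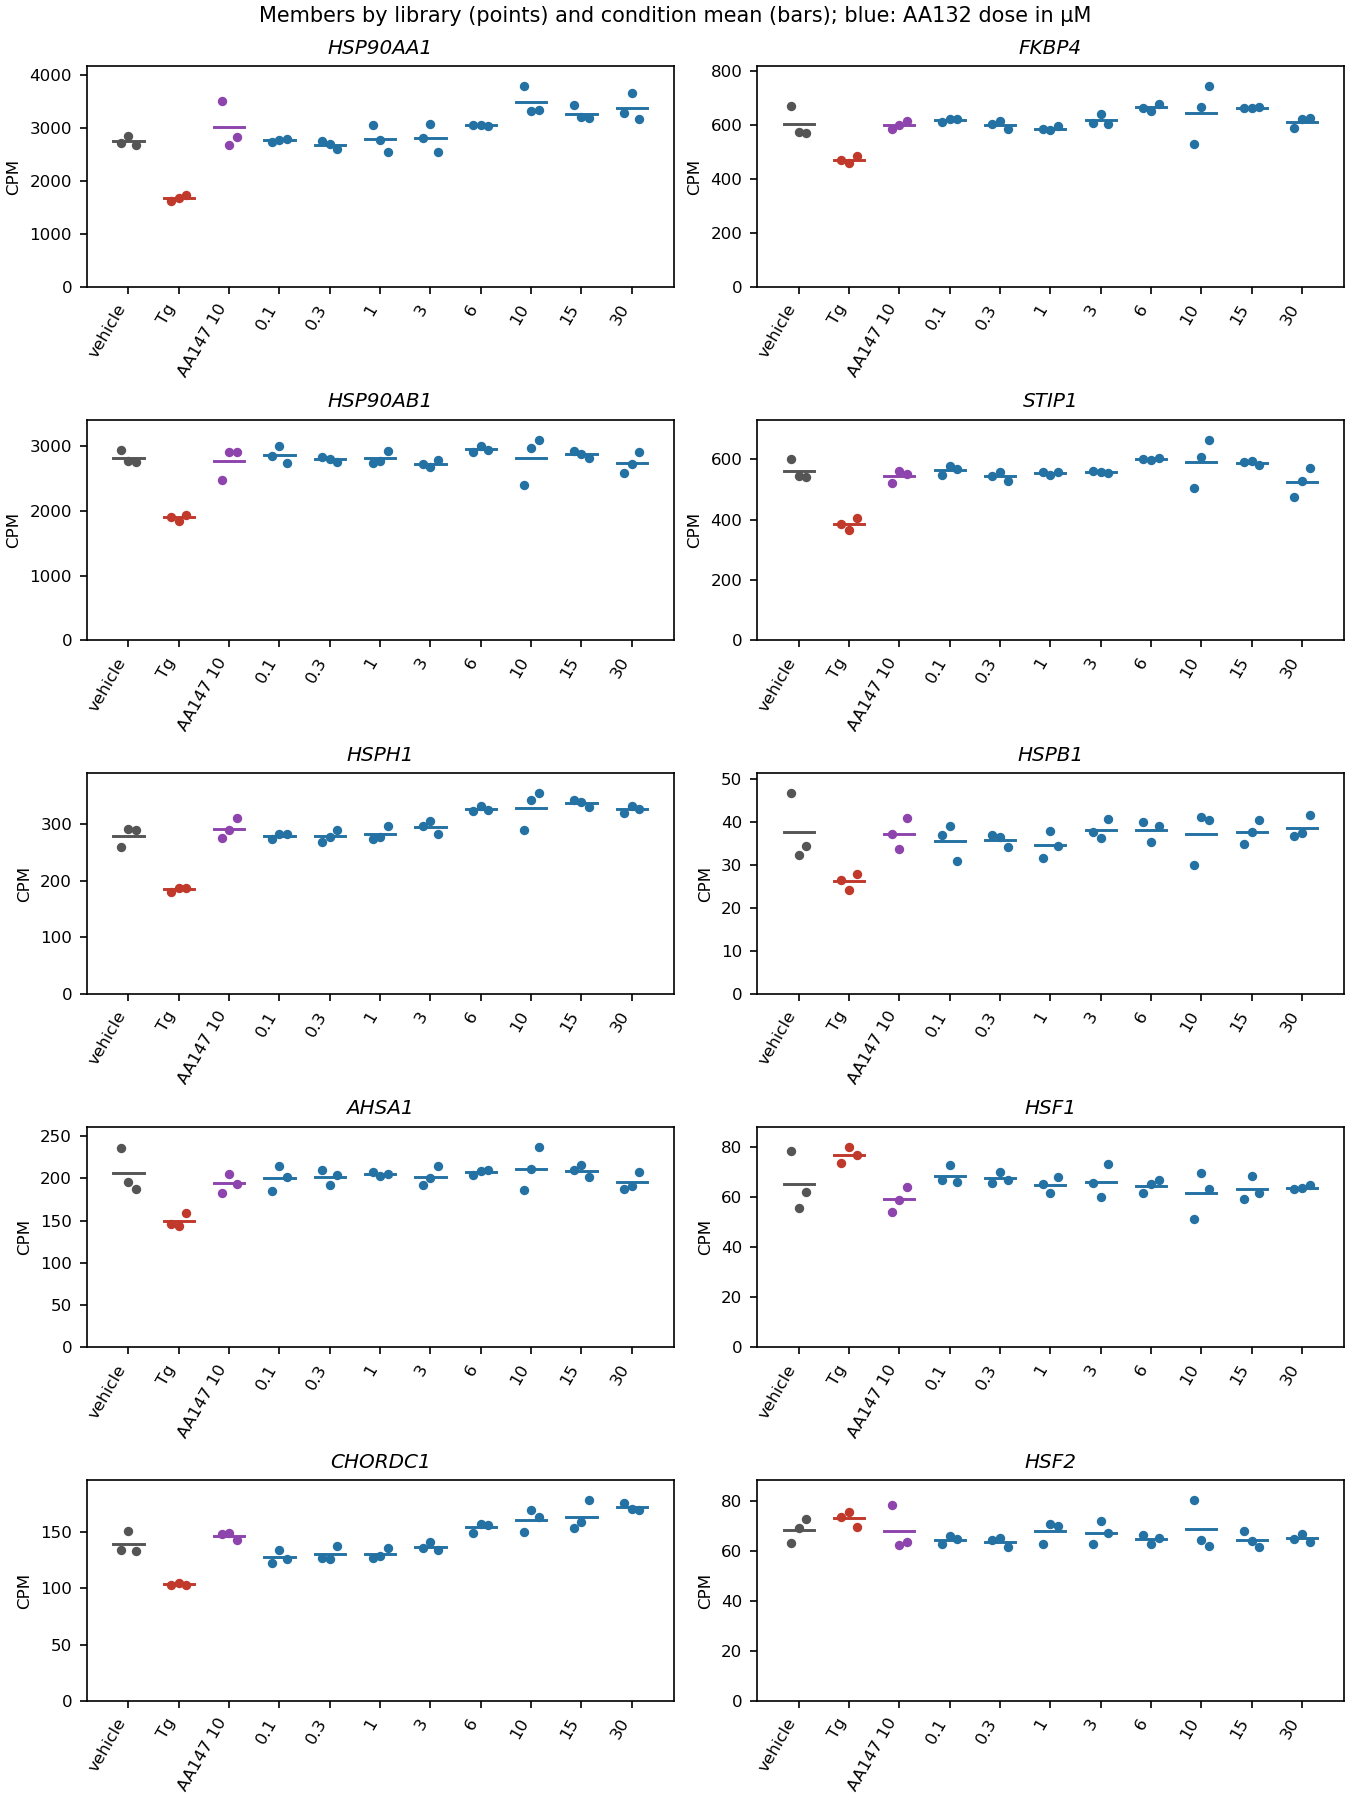
Level of each of the 10 genes in every library (points; CPM on a linear axis from 0), with the mean of the 3 libraries of each condition as a bar. The Tg libraries lie below all vehicle libraries for the 8 chaperone and co-chaperone genes, while HSP90AA1, HSPH1 and CHORDC1 are higher at AA132 doses of 10 to 30 µM.

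Thapsigargin was the condition in which the cytosolic chaperones were lowest. Against vehicle, 8 of the 10 genes fell and none rose (edgeR quasi-likelihood test, Benjamini-Hochberg adjusted p under 0.05 over all genes, the rule for every call below). The 8 were the HSP90 genes, HSPH1, HSPB1 and all 4 co-chaperones, and of them FKBP4 fell by 22.1%, the smallest change, and HSP90AA1 fell by 39.0%, the largest. Of all genes tested, 31.2% were called under Tg and 15.0% were called lower. The median log2 fold change was -0.49 over the 10 genes and 0.00 over all genes. For all 8 the 3 Tg libraries lay below the 3 vehicle libraries, a pattern that 18.0% of all genes showed in that direction. In bulk RNA, less RNA per cell and fewer cells that express a gene cannot be told apart.

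The HSP90 genes carried the most counts of the set. HSP90AA1 stood at 2713, 2842 and 2682 CPM in the vehicle libraries and at 1623, 1671 and 1735 under Tg. Every Tg library was therefore below every vehicle library, and the log2 fold change was -0.71 (SE 0.08, adjusted p = 7.26e-09), a fall with a 95% interval of -45.3% to -31.8%. HSP90AB1 stood at 2939, 2765 and 2754 CPM in vehicle and at 1909, 1848 and 1931 under Tg. Its groups were likewise separate (log2 fold change -0.57, SE 0.07, adjusted p = 3.89e-08). HSPH1, the HSP110-type partner of HSP70, had 259.3, 291.7 and 289.7 CPM in vehicle and 180.3, 188.1 and 187.1 under Tg (log2 fold change -0.60, SE 0.06, adjusted p = 2.46e-09).

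Among the co-chaperones the largest fall under Tg was that of STIP1, the adaptor between HSP70 and HSP90, from 600.6, 543.9 and 541.6 CPM to 385.5, 367.2 and 405.2 CPM (log2 fold change -0.54, SE 0.07, adjusted p = 1.26e-07). AHSA1, the ATPase activator, went from 236.2, 195.7 and 187.3 CPM to 145.8, 143.3 and 159.1 CPM (log2 fold change -0.47, SE 0.08, adjusted p = 1.68e-05). Vehicle library 1 was the high one for both. CHORDC1 had 133.8, 150.6 and 132.8 CPM in vehicle and 103.1, 104.4 and 102.6 under Tg, with the smallest spread of the set relative to its mean (log2 fold change -0.43, SE 0.06, adjusted p = 1.27e-06). FKBP4 had 669, 573.9 and 570.8 CPM in vehicle and 469.6, 459.7 and 484.1 under Tg (log2 fold change -0.36, SE 0.07, adjusted p = 0.000197). HSPB1, the small heat shock protein, had 46.65, 32.29 and 34.3 CPM in vehicle and 26.61, 24.2 and 27.96 under Tg (log2 fold change -0.52, SE 0.12, adjusted p = 0.000693). Its vehicle library 1 stood well above the other two, and without the 3 libraries that stood apart the HSPB1 log2 fold change was -0.35 (adjusted p = 0.00376). All 8 calls remained in that fit and when any 1 library of either group was left out.

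Neither heat shock factor was called under Tg. HSF1 had 78.2, 55.62 and 61.91 CPM in vehicle and 73.68, 80 and 76.88 under Tg. The highest vehicle library lay within the Tg range, and the log2 fold change of 0.24 (SE 0.10) missed the threshold (adjusted p = 0.0636). Without vehicle library 1 the HSF1 log2 fold change was 0.38 (adjusted p = 0.00145), without vehicle library 2 it was 0.12 (adjusted p = 0.406), and without all 3 libraries that stood apart it was 0.38 (adjusted p = 9.13e-05). With no filter on low counts and all libraries HSF1 was also called (0.22, adjusted p = 0.0489). HSF2 had 63.22, 69.41 and 73.13 CPM in vehicle and 73.9, 75.88 and 69.86 under Tg, overlapping groups with a log2 fold change of 0.09 (SE 0.08, adjusted p = 0.428). These are steady-state RNA levels. HSF1 is controlled largely at the protein level, through trimer formation and phosphorylation, which was not measured.

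**Figure D2:**
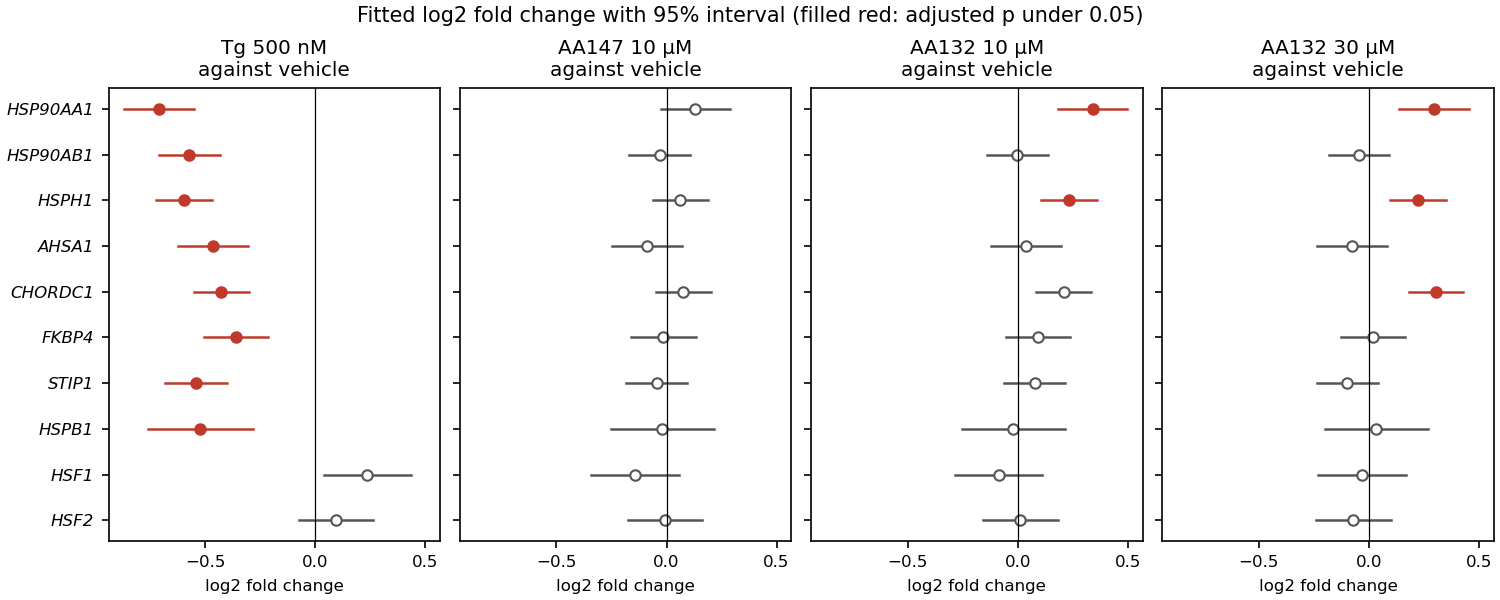
Log2 fold change against vehicle (points) with 95% intervals (lines) for the 10 genes under Tg, AA147 at 10 µM, AA132 at 10 µM and AA132 at 30 µM, from 1 edgeR fit with 3 libraries per condition. The Tg values of 8 genes lie between -0.71 and -0.36, and under AA132 HSP90AA1, HSPH1 and CHORDC1 lie between 0.21 and 0.34.

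Under AA132 a smaller subset of the genes changed, and these rose. At 30 µM, HSP90AA1 rose by 22.7%, CHORDC1 by 23.5% and HSPH1 by 16.6% against vehicle. The other 7 genes did not pass the test: HSP90AB1, AHSA1, FKBP4, STIP1, HSPB1, HSF1 and HSF2 had log2 fold changes between -0.10 and 0.03. Thus 3 of 10 genes were called, all higher, where 7.05% of all genes were called and 3.86% called higher. At 15 µM 2 of 10 were called (2.76% of all genes, 1.97% higher), and at 10 µM also 2 of 10 (1.41% of all genes, 1.03% higher). No gene of the set was called at 6 µM (1.07% of all genes), 3 µM (0.118%), 1 µM (0.00%), 0.3 µM (0.00%) or 0.1 µM (0.00%). At an unadjusted p under 0.05, edgeR counted 2 of the 10 at 6 µM (12.3% of all genes), 1 at 0.1 µM (4.47%) and 0 at 0.3 µM (5.51%), 1 µM (5.94%) and 3 µM (9.19%). DESeq2 called 1 gene after adjustment, HSPH1, at 6 µM (adjusted p = 0.0123) and 0 at the lower doses. When only the groups compared were fitted, no gene of the set was called at any AA132 dose.

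HSP90AA1, the inducible HSP90 gene, had 3044, 3054 and 3041 CPM at 6 µM and 3780, 3310 and 3338 CPM at 10 µM. At 15 µM it had 3419, 3206 and 3175 CPM, and 3281, 3657 and 3171 CPM at 30 µM. At each of these doses all 3 libraries lay above the vehicle range of 2682 to 2842 CPM, as 8.15%, 5.59%, 8.87% and 10.1% of all genes did. The log2 fold change was 0.15 at 6 µM (SE 0.08, adjusted p = 0.439), 0.34 at 10 µM (SE 0.08, adjusted p = 0.0154), 0.25 at 15 µM (SE 0.08, adjusted p = 0.077) and 0.30 at 30 µM (SE 0.08, adjusted p = 0.016). At 10 µM the highest library was library 1, which stood apart. Without it the log2 fold change was 0.27 (adjusted p = 0.0941), without vehicle library 3 it was 0.32 (adjusted p = 0.0592), and without all 3 libraries that stood apart 0.27 (adjusted p = 0.0134). The 30 µM call did not hold without AA132 library 2 (0.23, adjusted p = 0.121) or vehicle library 3 (0.28, adjusted p = 0.0534). At 15 µM HSP90AA1 passed without the 3 libraries (0.24, adjusted p = 0.0179), and with all libraries under DESeq2 (0.25, adjusted p = 0.0406) and with no filter on low counts (0.25, adjusted p = 0.0224).

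HSPH1 had 323.7, 332 and 325.4 CPM at 6 µM and 290.5, 343.4 and 354.9 CPM at 10 µM. At 15 µM its libraries had 343.1, 338.7 and 331.6 CPM, and at 30 µM 320.6, 332.3 and 327.5 CPM, against a vehicle range of 259.3 to 291.7 CPM. The groups were separate at 6, 15 and 30 µM, and at 10 µM library 1 lay within the vehicle range. The log2 fold change was 0.22 at 6 µM (SE 0.06, adjusted p = 0.0743), 0.23 at 10 µM (SE 0.06, adjusted p = 0.0476), 0.27 at 15 µM (SE 0.06, adjusted p = 0.0107) and 0.22 at 30 µM (SE 0.06, adjusted p = 0.0238). Vehicle library 1 had the lowest HSPH1 level of its group. Without it the log2 fold changes were 0.18 at 10 µM (adjusted p = 0.112), 0.22 at 15 µM (adjusted p = 0.052) and 0.17 at 30 µM (adjusted p = 0.0828), so none of these 3 calls held. Without all 3 libraries that stood apart HSPH1 passed at 6 µM (0.17, adjusted p = 0.0305), 10 µM (0.26, adjusted p = 0.00166), 15 µM (0.22, adjusted p = 0.0052) and 30 µM (0.17, adjusted p = 0.0158). The 10 µM call also failed without library 2 of AA132 (adjusted p = 0.162), library 3 of AA132 (adjusted p = 0.235) or vehicle library 3 (adjusted p = 0.0578). Leaving out AA132 library 1, 2 or 3 at 30 µM gave adjusted p of 0.0512, 0.0873 and 0.0612. With no filter on low counts HSPH1 was lost at 10 µM (0.23, adjusted p = 0.104) and 30 µM (0.22, adjusted p = 0.0594).

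CHORDC1, the CHORD-domain partner of HSP90, was called at 15 and 30 µM. Its libraries had 149.1, 157.2 and 155.7 CPM at 6 µM and 149.9, 168.9 and 163.4 CPM at 10 µM. At 15 µM they had 153.5, 158.7 and 177.9 CPM, and at 30 µM 175.9, 170.2 and 169.2 CPM, against 132.8 to 150.6 in vehicle. The groups overlapped at 6 and 10 µM and were separate at 15 and 30 µM. The log2 fold change was 0.15 at 6 µM (SE 0.06, adjusted p = 0.303), 0.21 at 10 µM (SE 0.06, adjusted p = 0.0784), 0.23 at 15 µM (SE 0.06, adjusted p = 0.0292) and 0.30 at 30 µM (SE 0.06, adjusted p = 0.00154). The 30 µM call held whichever library was left out. The 15 µM call did not survive the removal of library 2 (adjusted p = 0.0539) or 3 (adjusted p = 0.215) of AA132 at that dose, or of vehicle library 1 (adjusted p = 0.0725) or 3 (adjusted p = 0.104). At 10 µM CHORDC1 passed without AA132 library 1 (0.25, adjusted p = 0.0312), without vehicle library 2 (0.26, adjusted p = 0.0246) and without the 3 libraries that stood apart (0.23, adjusted p = 0.0237), and with all libraries under DESeq2 (0.21, adjusted p = 0.0138). With no filter on low counts it was lost at 15 µM (0.23, adjusted p = 0.0935).

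HSP90AB1, the form made in unstressed cells, stayed near its vehicle level under AA132. Its libraries had 2585, 2713 and 2899 CPM at 30 µM against 2939, 2765 and 2754 in vehicle, and the 95% interval of the difference was -11.9% to 6.65%. STIP1 had 475.9, 528.6 and 570.6 CPM at 30 µM against 600.6, 543.9 and 541.6 in vehicle, overlapping groups with an interval of -15.2% to 2.84%. FKBP4 had 588.5, 622.2 and 624.8 CPM at 30 µM against 669, 573.9 and 570.8 in vehicle, with an interval of -8.58% to 12.04%. For AHSA1 the interval at 30 µM was -15.1% to 5.78%, for HSPB1 -13.0% to 20.5%, for HSF1 -14.8% to 12.2% and for HSF2 -15.4% to 7.07%. Of these 7 intervals only that of HSPB1 reached the 16.6% rise measured for HSPH1.

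The co-chaperone values at 10 µM rested on the libraries that stood apart. FKBP4 had 527.8, 664.1 and 742.4 CPM there, STIP1 506.1, 607.1 and 665.1, and AHSA1 186.7, 210.9 and 237.5, and library 1 was the lowest for all 3. With all libraries none passed (adjusted p of 0.62, 0.685 and 0.897 in that order). Without the 3 libraries that stood apart, FKBP4 had a log2 fold change of 0.30 (SE 0.05, adjusted p = 0.000273), STIP1 0.23 (SE 0.06, adjusted p = 0.0141) and AHSA1 0.23 (SE 0.07, adjusted p = 0.0383) at 10 µM, and 6 of the 10 genes were called higher. In the same fit 1394 of all genes were called at that dose, against 250 with all libraries. FKBP4 also passed at 6 µM (0.22, adjusted p = 0.00435) and 15 µM (0.21, adjusted p = 0.00465), but its log2 fold change at 30 µM was 0.10 (adjusted p = 0.179). Whether the full or the reduced set of libraries describes the cells better was not tested.

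Across the 8 AA132 doses a slope on log10 dose was fitted to the 24 AA132 libraries, without vehicle. Of the 10 genes 3 rose with dose and none fell, where 18.7% of 17554 genes had a slope past the threshold and 9.83% a rising one. Per 10-fold higher dose, log2 expression of CHORDC1 rose by 0.19 (SE 0.02, adjusted p = 4.71e-08), that of HSP90AA1 by 0.15 (SE 0.02, adjusted p = 4.87e-05) and that of HSPH1 by 0.13 (SE 0.02, adjusted p = 1.65e-05). In percent these were 13.9%, 10.7% and 9.11% per 10-fold dose. The HSP90AB1 slope was 0.00 (SE 0.02, adjusted p = 0.935) with an interval of -3.02% to 2.62% per 10-fold dose. The slopes of FKBP4 at 0.04 (adjusted p = 0.236), HSPB1 at 0.05 (adjusted p = 0.227) and HSF1 at -0.05 (adjusted p = 0.14) missed the threshold, as did those of AHSA1, STIP1 and HSF2. The 3 rising slopes were called in every alternative fit, also without any 1 of the 24 libraries and without the 30 µM dose. The rise was not a straight line for all of them: HSPH1 had means of 280.1, 279.0 and 283.0 CPM at 0.1, 0.3 and 1 µM, 295.6 CPM at 3 µM, and then 327.0, 329.6, 337.8 and 326.8 CPM from 6 µM upward. CHORDC1 instead had its highest mean, 171.8 ± 3.6 CPM (SD, n = 3), at 30 µM. No gene of the set was called between 30 and 10 µM (0.933% of all genes called). At an unadjusted p under 0.05, edgeR counted 1 gene there, where 13.6% of all genes were under it, and DESeq2 called 0. That gene was STIP1 (log2 fold change -0.18, adjusted p = 0.221), which passed without AA132 10 µM library 1 (-0.27, adjusted p = 0.043) and, with FKBP4, without the 3 libraries that stood apart (-0.28, adjusted p = 0.00335, and -0.20, adjusted p = 0.0124).

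**Figure D3:**
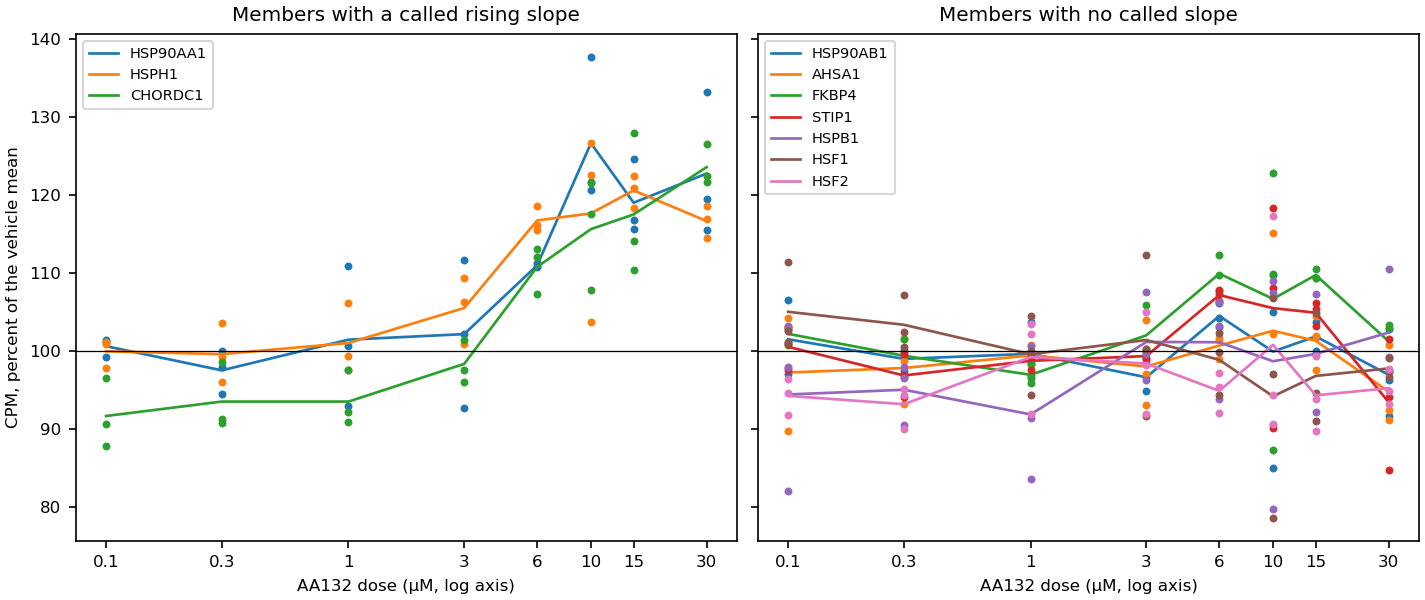
Level as a percent of the vehicle mean against AA132 dose (µM, log axis) for HSP90AA1, HSPH1 and CHORDC1 on the left and the other 7 genes on the right, with points for libraries and lines through the means. The means on the left lie above the vehicle level from 6 µM upward. On the right, FKBP4 and STIP1 also have means above vehicle at 6, 10 and 15 µM (FKBP4 664 CPM at 6 µM against 605 in vehicle). At 30 µM FKBP4 lies near its vehicle mean (612 CPM) and STIP1 below its own. The right-hand genes show more spread between the 10 µM libraries.

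AA147 at 10 µM did not move any gene of the set past the threshold. Its calls over all genes were 0.0225%. At an unadjusted p under 0.05, edgeR counted 0 of the 10, where 6.81% of all genes were under it, and DESeq2 called 0 after adjustment. HSP90AA1 had 3513, 2674 and 2833 CPM under AA147, and library 1 alone lay above the vehicle range (log2 fold change 0.13, SE 0.08, adjusted p = 0.808, interval -1.88% to 22.2%). Without the 3 libraries that stood apart the HSP90AA1 log2 fold change was 0.00 (adjusted p = 0.989). HSPH1 had 276.1, 289.8 and 312.1 CPM (interval -4.31% to 14.0%) and CHORDC1 147.7, 149.3 and 142.8 CPM (interval -3.28% to 14.9%). HSF1 had 54.19, 58.85 and 64.02 CPM, which overlapped the vehicle libraries (log2 fold change -0.14, adjusted p = 0.823).

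AA132 and AA147 share 1 dose, 10 µM, so they formed a single matched pair, compared for 10 genes within the fit of all genes. No gene of the set was called (0.0674% of all genes called). At an unadjusted p under 0.05, edgeR counted 3 of the 10, HSPH1, HSP90AA1 and CHORDC1, where 8.01% of all genes were under it, and DESeq2 called 0. HSP90AA1 was 15.6% higher under AA132 with a 95% interval of 3.62% to 29.0% (adjusted p = 0.419). HSPH1 was 12.6% higher with an interval of 3.19% to 22.9% (adjusted p = 0.405). CHORDC1 was 9.64% higher with an interval of 0.599% to 19.5% (adjusted p = 0.575), and its AA132 libraries all lay above its AA147 libraries, as 5.47% of all genes did. For HSP90AB1 the interval was -7.3% to 12.3% and for HSPB1 -15.1% to 17.6%. Without the 3 libraries that stood apart HSPH1 (0.22, adjusted p = 0.0432) and FKBP4 (0.21, adjusted p = 0.0354) were higher under AA132, and HSPH1 also passed without AA132 library 1 alone (0.25, adjusted p = 0.0476). The 2 compounds were therefore not separated by most of these genes at the threshold, and the intervals do not show that they act alike.

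Tg and AA132 at 30 µM were also compared directly, without vehicle. In that contrast 8 of the 10 genes were higher under AA132 and 1, HSF1, was lower, where 29.8% of all genes were called and 14.3% called higher. HSP90AA1 differed most, with a log2 fold change of 1.01 (SE 0.08, adjusted p = 4.78e-12), followed by HSPH1 at 0.82 (SE 0.06, adjusted p = 2.78e-12) and CHORDC1 at 0.73 (SE 0.06, adjusted p = 2.66e-11). HSPB1 at 0.56, HSP90AB1 at 0.53, STIP1 at 0.44, AHSA1 at 0.39 and FKBP4 at 0.38 were also called, although none of these 5 was called at 30 µM against vehicle. HSF1 was lower under AA132 (log2 fold change -0.27, SE 0.10, adjusted p = 0.0348), a call that was lost when any 1 of the 6 libraries was left out (adjusted p from 0.0536 to 0.118). HSF1 passed without the 3 libraries that stood apart (-0.26, adjusted p = 0.00143). HSF2 had a log2 fold change of -0.17 (adjusted p = 0.138), and passed without those 3 libraries (-0.16, adjusted p = 0.0223) and when only these groups were fitted (-0.15, adjusted p = 0.0477). For all 10 genes the 2 groups did not overlap, which held for 46.8% of all genes.

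The levels of the 2 HSP90 genes were also set against each other in each library. Per kilobase, HSP90AA1 stood at 0.731, 0.814 and 0.771 of HSP90AB1 in the vehicle libraries and at 0.673, 0.716 and 0.711 under Tg, where both fell. Under AA132 the ratio was 1.25, 0.886 and 0.854 at 10 µM, 0.926, 0.884 and 0.891 at 15 µM and 1.00, 1.07 and 0.866 at 30 µM. All libraries at these 3 doses lay above the vehicle range, and all Tg libraries below it. For each of the 4 groups a two-sided exact permutation test gave p = 0.1, the smallest that 3 against 3 libraries allow, and 0.25 after adjustment over 10 conditions. The libraries at 0.1 µM (0.731 to 0.806) and 0.3 µM (0.748 to 0.770) lay within the vehicle range. At 1 and 3 µM they spread to both sides of it, and at 6 µM they lay within or above it. The ratios were 0.882, 0.789 and 0.690 at 1 µM, 0.815, 0.907 and 0.726 at 3 µM and 0.830, 0.808 and 0.819 at 6 µM. The AA147 ratios were 1.13, 0.727 and 0.771. Library 1, which stood apart, lay above the vehicle range and library 2 just below it. The 10 genes together took 0.492% ± 0.008 of all counts under Tg and 0.837% ± 0.013 under AA132 at 10 µM (SD, n = 3), against 0.752% ± 0.011 in vehicle.

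**Figure D4:**
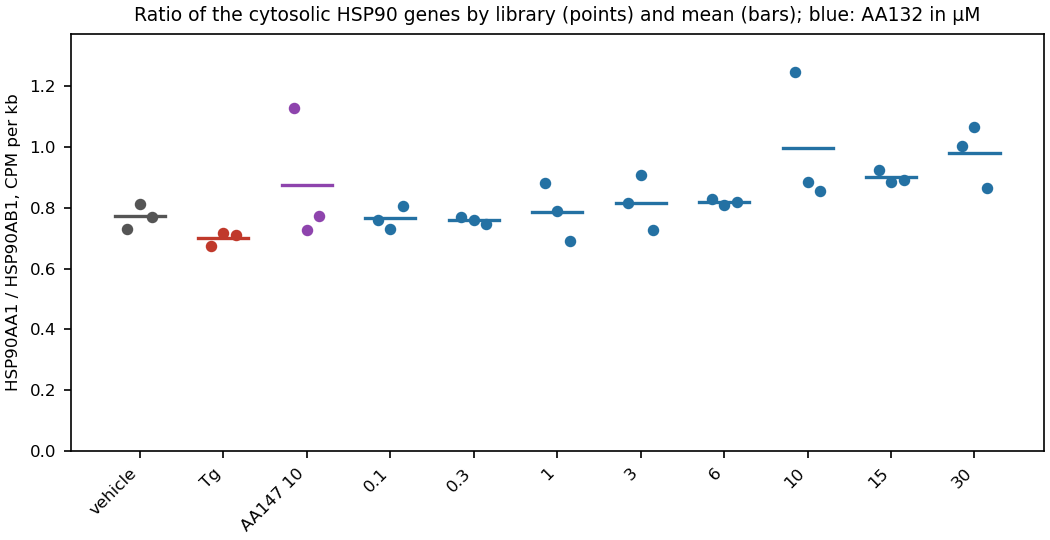
Ratio of HSP90AA1 to HSP90AB1, both as CPM per kilobase, in every library (points) with the mean per condition (bar), on a linear axis from 0. Tg libraries lie between 0.673 and 0.716, vehicle libraries between 0.731 and 0.814, and the AA132 libraries at 10, 15 and 30 µM between 0.854 and 1.25. Those at 1 µM lie between 0.690 and 0.882 and those at 3 µM between 0.726 and 0.907.

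Across the 11 conditions the means of all 8 chaperone and co-chaperone genes were lowest under Tg, and those of HSF1 and HSF2 were highest under Tg. As a description, the 28 pairs among the 8 genes had Pearson correlations of 0.70 to 0.98 over the 11 condition means, and HSF1 correlated with them at -0.88 to -0.74. These means come from the same libraries, and Tg lay farthest from the other conditions for each of the 8. Over the 10 conditions without Tg the 28 pairs ran from -0.12 (HSP90AB1 and HSPB1) to 0.94, and HSF1 correlated with the 8 genes at -0.62 to 0.19, so the values over 11 means rest largely on Tg. Without Tg, HSP90AA1 and CHORDC1 correlated at 0.94, HSPH1 and CHORDC1 at 0.92, and HSP90AA1 and HSPH1 at 0.91, whereas HSP90AA1 and HSP90AB1 correlated at 0.01. HSP90AB1 and STIP1 correlated at 0.79 over those 10 means, and AHSA1 and STIP1 at 0.84.

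The genes whose log2 CPM followed each member most closely over the 11 means were, for HSPH1, the HSP70 genes HSPA1B (r = 0.985) and HSPA1A (r = 0.984) and RTN4R (r = 0.984). For STIP1 they were the mitochondrial chaperonin HSPD1 (r = 0.977), COL6A1 (r = 0.971) and the HSP90 co-chaperone UNC45A (r = 0.967). The genes nearest the other members were outside the chaperone lists. HSP90AA1 was followed by FAM111B, RTN4R and POR (r = 0.979 to 0.988), HSP90AB1 by ADAMTS2, COL4A2 and BAMBI (r = 0.986 to 0.993), and CHORDC1 by TAP1, ABHD3 and PSAP (r = 0.974 to 0.987). AHSA1 was followed by MYL6, CBR1 and COL4A2 (r = 0.972 to 0.975), FKBP4 by VAT1, CTSB and TUBB6 (r = 0.963 to 0.975), and HSPB1 by BTD, SLCO4A1 and LASP1 (r = 0.978 to 0.985). HSF1 was followed by MARK3 (r = 0.953) and PPIP5K1 (r = 0.939), and HSF2 by C1orf122, NUDT2 and RFC4 (r = 0.917 to 0.926). Each was picked by its correlation from 9785 genes, over means that include Tg. Whether these genes follow the members without Tg was not tested.

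The wider HSP90 and HSF1 network was described by counts over lists of genes. Of 21 other HSP90 co-chaperones and partners, 1 rose and 5 fell under Tg (median log2 fold change -0.14), where 16.2% of all genes rose and 15.0% fell. The rise was that of PIH1D1, a subunit of the R2TP complex (0.59, SE 0.07, adjusted p = 1.01e-07), and the largest fall that of UNC45A, a myosin chaperone that binds HSP90 (-0.49, SE 0.07, adjusted p = 3.32e-07). None of the 21 was called under AA147 (0.0225% of all genes called) or AA132 at 10 µM (1.41%). At AA132 30 µM 5 fell and none rose, where 3.19% of all genes fell and 3.86% rose, with the largest fall in CDC37, the adaptor that brings kinases to HSP90 (-0.36, SE 0.08, adjusted p = 0.00248; 209 ± 34.5 CPM in vehicle and 162 ± 7.26 at 30 µM, SD, n = 3). The median over the 21 was -0.10 at 30 µM and 0.00 over all genes. Without the 3 libraries that stood apart 1 rose and 4 fell, where 2716 of all genes were called in either direction, against 1255 with all libraries. In that fit CDC37 fell by 0.23 on the log2 scale (adjusted p = 0.0119). Without vehicle library 1 alone 1 rose and 2 fell, and without AA132 library 1 or 2 a single gene fell.

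HSP90B1, the HSP90 of the endoplasmic reticulum, stood at 1237 ± 63.7 CPM in vehicle and 5000 ± 16.9 under Tg (SD, n = 3), a 4.04-fold rise (log2 fold change 2.02, adjusted p = 2.53e-18) in the libraries where HSP90AA1 and HSP90AB1 fell. Under AA132 it rose to 2207 ± 84.3 CPM at 10 µM (0.84, adjusted p = 1.25e-06) and 2173 ± 71.0 at 30 µM (0.81, adjusted p = 1.45e-07) (the values for HSP90AA1 were 0.34 and 0.30, and for HSP90AB1 0.00 and -0.05). TRAP1, the mitochondrial HSP90, fell at 30 µM (-0.29, SE 0.07, adjusted p = 0.0059), and by 0.17 on the log2 scale (adjusted p = 0.0167) without the 3 libraries that stood apart.

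A list of 20 other genes often induced through HSF1 was read in the same way. Under Tg 12 fell and 2 rose (median log2 fold change -0.36; 15.0% and 16.2% of all genes), with the largest fall in HSPA1A, an inducible HSP70, from 1103 ± 81.1 to 255 ± 12.5 CPM (-2.11, SE 0.18, adjusted p = 3.27e-11). The largest rise was that of ZFAND2A, an arsenite-inducible proteasome-associated protein (1.27, SE 0.11, adjusted p = 1.46e-11). Under AA147 none was called (0.0225% of all genes called). Under AA132 3 rose at 6 µM (0.866% of all genes) and 5 at 10 µM (1.03%). At both 15 µM (1.97%) and 30 µM (3.86%) 9 rose, and none fell at any of these doses. Without the 3 libraries that stood apart 6, 10, 8 and 9 rose at these doses from low to high, and 1 fell at 30 µM. In that fit 1084, 1394, 1145 and 2716 of all genes were called in either direction, against 190, 250, 491 and 1255 with all libraries. At 15 µM 5 rose without AA132 library 2 and 6 without library 3, and at 6 µM 5 rose without vehicle library 1. HSPA6, a strictly inducible HSP70, rose most, from 1.69 ± 0.051 CPM in vehicle to 5.38 ± 2.57 at 10 µM (1.67, SE 0.25, adjusted p = 9.53e-05) and 8.06 ± 0.447 at 30 µM (2.25, SE 0.24, adjusted p = 1.45e-07). HSPA1A and HSPA1B are near-identical copies, so their read split is uncertain, and HSPA6 has a close relative in the genome.

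Of 9 other small heat shock protein genes 4 passed the filter on low counts. HSPB8, which works with BAG3 in selective autophagy, rose under AA132 at 10 µM (0.70, SE 0.14, adjusted p = 0.00318) and 30 µM (0.52, SE 0.14, adjusted p = 0.0184), from 10.97 ± 0.642 CPM in vehicle to 17.8 ± 4.76 and 15.7 ± 0.54 CPM (SD, n = 3). The HSPB8 call at 10 µM was lost without AA132 library 3 (adjusted p = 0.0689), and that at 30 µM without AA132 library 1 (adjusted p = 0.0512) or 2 (adjusted p = 0.0721) or vehicle library 2 (adjusted p = 0.0636). HSPB6 rose under Tg (1.91, SE 0.43, adjusted p = 0.000797) but from 0.218 to only 0.826 CPM. Of 9 other HSF family genes and regulators 8 were tested, and none was called under AA147 or at any AA132 dose against vehicle. Of all genes 0.0225% were called under AA147, and between 0.00% and 7.05% at the AA132 doses. Under Tg HSBP1, a small coiled-coil protein that binds HSF1 trimers, fell (-0.58, SE 0.08, adjusted p = 3.04e-07), and HSF2BP, an HSF2-binding protein, rose (0.57, SE 0.18, adjusted p = 0.0156). The HSF2BP call was lost without Tg library 1 (adjusted p = 0.0708) or 2 (adjusted p = 0.0769) and without vehicle library 2 (adjusted p = 0.128).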

How the data were processed

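RNA-seq expected counts (estimated counts, some of them fractional) for 38074 gene entries were deposited by the authors in a single table, with 3 numbered columns for each of 11 conditions. The genome build was GRCh38.p7 per the submitters' processing notes. The aligner and counter are not given in the sources used here. The deposited value 0.009 stood for 0 and was set to 0, other values were rounded, 98 entries sharing 45 names were summed, and 28 names altered to dates were left unnamed.

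Counts were fitted with edgeR 4.0.16 in R 4.3.3 (TMM, filterByExpr, quasi-likelihood F-test, 11 conditions in 1 fit without a block), and p-values were adjusted by Benjamini-Hochberg over all 17793 genes tested, with a threshold of 0.05. CPM used TMM-scaled totals. Intervals are 95% and use the fit's degrees of freedom. Ratios used the exact permutation test. Scripts were tested on simulated data. Alternatives were RLE scaling, no filter, a replicate block, only the groups compared, DESeq2 1.42.0, leaving out each library, and, chosen after seeing the data, leaving out the 3 libraries that stood apart.

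All 10 genes are named in all conditions. From each of 5 lists the called genes with the largest rise and fall under Tg, AA147 10 µM, AA132 10 µM and AA132 30 µM are named, with HSP90B1 and TRAP1, and the 3 genes nearest each member in Pearson correlation among genes of at least 10 CPM, of which 1 is not reported here. The genes and lists were chosen with earlier results of these data known. Gene lengths came from GENCODE 44. Pseudogene entries were not analysed here.

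The labels do not say whether the replicate numbers pair libraries. Deviations from the condition means correlated at -0.42 to 0.33 between libraries with the same number, with a median of 0.001. Between libraries of different number and condition the median was -0.003. These values do not exclude a pairing in part of the libraries.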

Additional observations from a re-analysis of the deposited data

How the results depend on the processing

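Over the alternatives run, 1801 of 1860 values for single genes kept their side of the threshold, 33 lost the call, 26 gained it and 0 changed direction while called. Changes of direction among uncalled values were not counted. Under AA147, 3 of the 10 values were positive with all libraries and 8 without the libraries that stood apart. The Tg count stayed at 8 or 9 of 10 genes and the slope count at 3. At AA132 6 µM (0 genes called), 1 was called with the replicate block, 1 with DESeq2 and 2 without the libraries that stood apart. At 10 µM (2 called), 1 was called with no filter on low counts, 0 when only the groups compared were fitted, 6 without the libraries that stood apart and 3 with DESeq2. At 15 µM (2 called), 0 were called with only the groups compared, 4 without the libraries that stood apart, 3 with DESeq2 and 2 with no filter, where HSP90AA1 took the place of CHORDC1. At 30 µM (3 called), 2 were called with no filter and 0 with only the groups compared, a fit with few residual degrees of freedom that calls 74 of all genes against 1255. AA132 against AA147 at 10 µM and AA132 30 against 10 µM (0 called each) gave 2 each without the libraries that stood apart. Leaving out 1 library gave 0 to 3 genes at 10 µM, 0 to 2 at 15 µM, 1 to 3 at 30 µM, 0 to 1 for AA132 against AA147 and 0 to 1 for 30 against 10 µM. The lone or paired libraries left in an arm were assumed to vary like the other groups.

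Over all genes the counts moved by more than 1.5 times in several fits. With only the groups compared they were 3073 for Tg against 5551, 25 for AA132 6 µM against 190, 8 for 10 µM against 250 and 46 for 15 µM against 491. Without the libraries that stood apart they were 351 for 3 µM against 21, 1084 for 6 µM, 1394 for 10 µM, 1145 for 15 µM and 2716 for 30 µM. DESeq2 called 344 at 6 µM, 492 at 10 µM, 807 at 15 µM and 30 under AA147 against 4. With no filter 360 were called at 6 µM, 411 at 10 µM and 82 under AA147. The cause was not tested.

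The replicate numbers carry no stated pairing, and 14 of 33 libraries correlated best with their own number. The replicate block called HSPH1 at 6 µM (0.22, adjusted p = 0.0391 by edgeR) and changed no other call of the 10 genes. The lowest count of the 10 genes in a library was 887.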
